A study of Mus musculus with 6 samples.

Results

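A set of 10 genes of load and hypertrophy stress was followed in adult cardiomyocytes (CMs) with and without *Cpt1b*, the muscle isoform of the carnitine palmitoyltransferase that admits long-chain fatty acids to mitochondria for oxidation. They were 10 of the 16448 genes in the expression table whose symbol was *Nppa*, *Nppb*, *Ankrd1*, *Ankrd23*, *Csrp3*, *Xirp1*, *Xirp2*, *Fhl1*, *Fhl2* or *Rcan1*. The rule uses no measured value, but the members were chosen with earlier results of these data known. All 10 passed the filter on low values. RNA-seq covered 3 Cpt1bcKO samples (αMHC-Cre pos/+;Cpt1b fl/fl) and 3 CtrlCre samples (αMHC-Cre pos/+;Cpt1b +/+) of C57BL/6 mice aged 8 to 12 weeks. The control mice thus also carried the Cre transgene, whose αMHC (*Myh6*) promoter is active in CMs. The study places inactivation of the gene before birth, and the time at which the enzyme was lost was not measured here. Ventricular CMs were released by enzymatic perfusion after which the atria were taken off, and were enriched by slow centrifugation. The study describes its replicates for these expression changes as mice, but the labels do not say that each library came from a separate animal, and p values measure the spread between these samples.

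The members belong to a programme that CMs switch on when wall stress, pressure load or growth signals rise. Natriuretic peptides are secreted hormones that lower blood volume and pressure, and ventricles express them strongly in fetal life, express them less after birth and raise them again under load. The ankyrin repeat, LIM and Xin repeat proteins sit at the Z-disc, the I-band of titin or the intercalated disc, where the contractile apparatus senses stretch, and several of them also act in the nucleus. *Rcan1* encodes a regulator of calcineurin, the calcium-dependent phosphatase that activates NFAT factors in pathological hypertrophy, and is itself switched on by them.

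Values are normalized counts, that is, read counts on a gene divided by a size factor of the sample and rounded. They summed to 13665354 to 16243545 in CtrlCre samples and 13393411 to 31722217 in Cpt1bcKO samples. Once mitochondrial-encoded and rRNA genes were left out, the sums were 3438589 to 3551692 in CtrlCre and 3146414 to 3315777 in Cpt1bcKO samples, without overlap. The mitochondrial rRNA *mt-Rnr2* made up 63.2% to 64.6% of the sum in CtrlCre samples and 61.8%, 72.6% and 80.8% in Cpt1bcKO samples 1, 2 and 3. *Xist* stood at 957 and 1080 in number 1 of both groups and between 23 and 78 in the other samples. The Y-linked gene *Ddx3y* stood at 0 in number 1 of both groups and between 576 and 710 in the other samples. By these values number 1 of each group was female and the other samples were male. Sex was read from these values and not from labels. A fit with number 1 of both groups left out thus holds male samples alone. The targeted gene, *Cpt1b*, fell from 1861, 893 and 1443 to 211, 353 and 285 (log2 fold change −2.27, adjusted p = 0.00338). The groups were compared by limma in 11364 genes after a log2(value + 1) transformation, and a change was called at an adjusted p below 0.05 over all of them.

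Promoter sequences are shown first for the genes whose changes are described below, because the sites for which these genes are textbook examples can be read in them. RefSeq windows on GRCm38.p6 reach from 250 bases before to 50 bases after a start, and 14 of them matched 9 members, with none for *Xirp1*. Capitals mark matches on either strand to a TEAD site called M-CAT (CATTCC), to a GATA site (AGATAA, where the first base may also be T and the last base G), to an NKX2-5 site (TNAAGTG), to an NFAT core (GGAAAA), to an AP-1 site (TGANTCA), and to the CArG box of serum response factor and the MEF2 site. No match in a printed sequence overlapped another one. Shown whole are the 250 bases upstream of the *Nppa* start, of the start of *Fhl2* that lies inside the gene and of the inner start of *Rcan1*, at chr4:148000472-148000721 on the plus strand, chr1:43163962-43164211 on the minus strand and chr16:92400079-92400328 on the minus strand:
*Nppa*: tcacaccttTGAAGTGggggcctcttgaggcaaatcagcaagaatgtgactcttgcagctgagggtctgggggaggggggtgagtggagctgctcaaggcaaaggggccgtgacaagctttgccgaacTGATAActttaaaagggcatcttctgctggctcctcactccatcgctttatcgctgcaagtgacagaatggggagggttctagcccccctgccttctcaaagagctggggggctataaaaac
*Fhl2*, inner start: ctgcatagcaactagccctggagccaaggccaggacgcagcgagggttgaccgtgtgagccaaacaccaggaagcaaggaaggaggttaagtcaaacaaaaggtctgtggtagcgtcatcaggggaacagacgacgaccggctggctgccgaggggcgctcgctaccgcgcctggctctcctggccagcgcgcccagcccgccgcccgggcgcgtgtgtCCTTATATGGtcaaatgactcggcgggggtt
*Rcan1*, inner start: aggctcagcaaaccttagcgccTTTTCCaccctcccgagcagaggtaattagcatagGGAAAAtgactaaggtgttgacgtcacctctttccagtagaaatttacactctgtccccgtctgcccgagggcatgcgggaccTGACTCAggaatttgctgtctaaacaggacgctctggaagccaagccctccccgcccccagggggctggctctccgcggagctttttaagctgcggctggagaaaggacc

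In the windows of *Nppb*, *Ankrd1* and the outer *Fhl2* start, GENCODE vM21 places an exon, and only short stretches around the matches are given. They lie at chr4:147985794-147985822 (plus strand), chr19:36120040-36120063 and chr19:36119953-36119976 (minus strand) and chr1:43196839-43196866 and chr1:43196774-43196801 (minus strand):
*Nppb*, M-CAT and GATA: aGGAATGcagcTGATAAatcagAGATAAc
*Ankrd1*, distal M-CAT: actgccaaaGGAATGaccctctca
*Ankrd1*, proximal M-CAT: actaagtctGGAATGaaaattcac
*Fhl2*, outer start, CArG box: atttagagaCCAAAAAAGGcttgcagga
*Fhl2*, outer start, MEF2 site: ggacatgccTTATTTATAActctgctga

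A GATA site was present in 8 of the 14 member windows, against 29.8% of 32851 promoter windows of all genes. M-CAT was present in 4 windows, of *Ankrd1*, *Nppb* and both starts of *Ankrd23* (14.7% of all promoters). A CArG box was present in 3 windows, at both starts of *Fhl2* and in *Fhl1* (1.6% of all promoters), and a MEF2 site in 2, in *Fhl2* and *Xirp2* (3.2%). NKX2-5 letters stood in *Nppa* and *Csrp3* (11.5%), AP-1 letters in *Xirp2* and *Rcan1* (7.8%), and the NFAT core in both starts of *Ankrd23* and, with 2 matches, in *Rcan1* (23.4%). Several windows belong to the same gene, so they are not independent. These are matches of letters, and no binding was measured here.

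**Figure D1:**
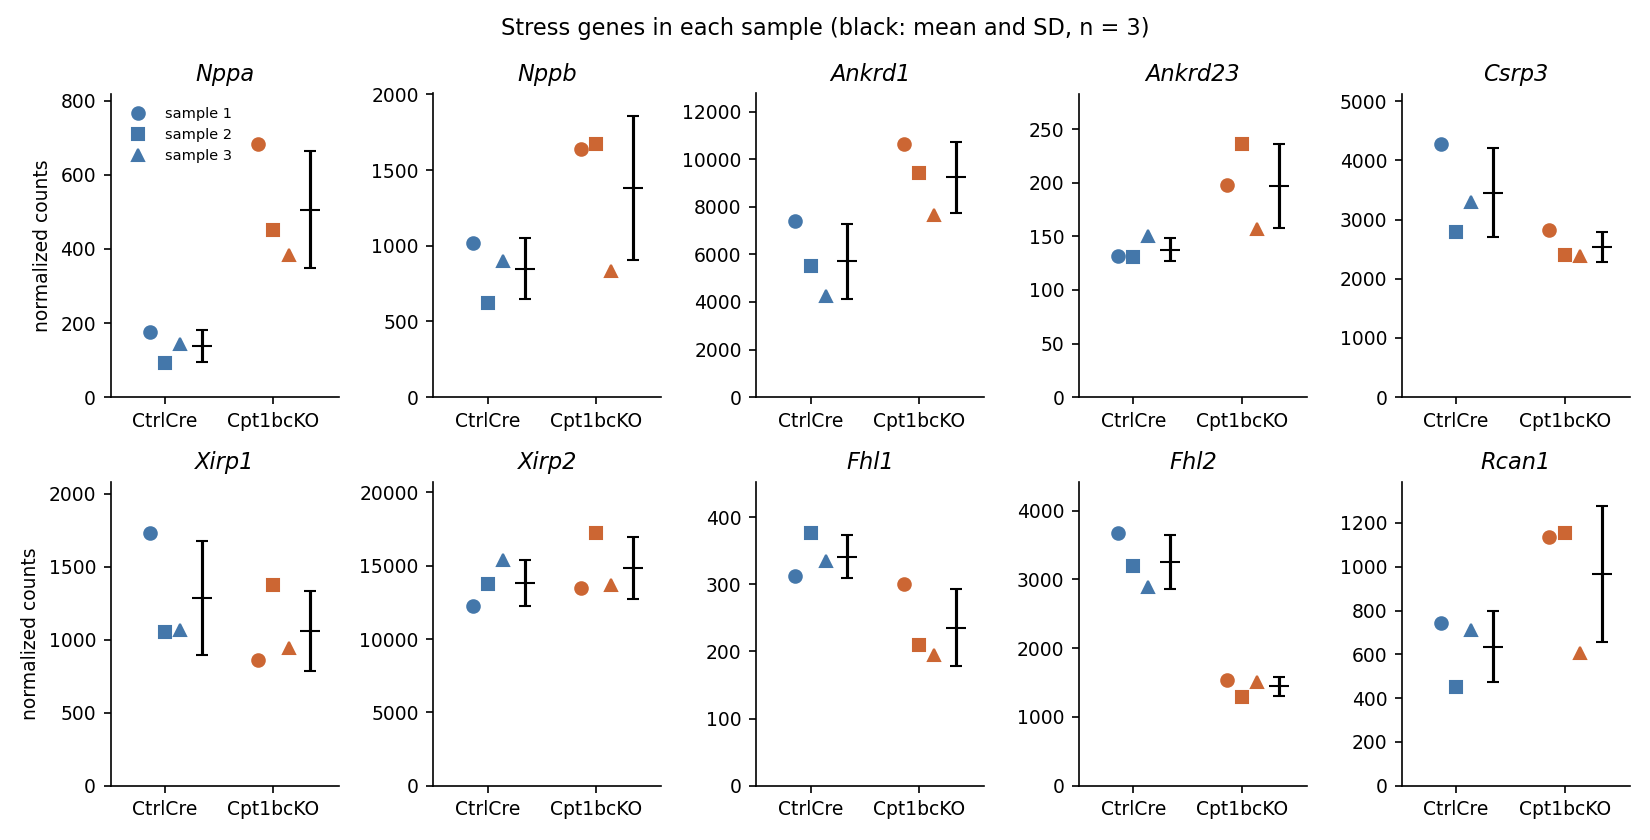
Normalized counts (y axes, each starting at 0) of the 10 members in CtrlCre (blue) and Cpt1bcKO (orange) samples; the marker shape gives the sample number and the black bar the mean and SD of 3 samples. *Nppa* and *Fhl2* separate the groups most widely, at 93 to 177 against 384 to 683 and at 2895 to 3681 against 1284 to 1543, whereas *Xirp1* and *Xirp2* overlap.

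The hormone *Nppa* rose and the neighbouring *Nppb* did not pass the test. *Nppa*, which encodes atrial natriuretic peptide (ENSMUSG00000041616, chromosome 4, 148000722 to 148002079, plus strand), had 177, 93 and 144 normalized counts in CtrlCre samples and 683, 452 and 384 in Cpt1bcKO samples. Every Cpt1bcKO sample was above every CtrlCre sample, and the lowest of them was still above the highest control. The mean rose from 138 ± 42.3 to 506 ± 157 (SD, n = 3 each). The log2 fold change was 1.87, with a standard error (SE) of 0.27 and a 95% interval of 1.28 to 2.47 (adjusted p = 0.00917). It ranked 40th by p value among all genes tested. The call was lost without Cpt1bcKO sample 2 (adjusted p = 0.0556), where the log2 fold change was 1.93, and with 1 prior variance for all genes (adjusted p = 0.0772).

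*Nppb*, which encodes brain natriuretic peptide, lies 13.5 kb from *Nppa* on the same strand (ENSMUSG00000029019, chromosome 4, 147985788 to 147987205). Its values were 1019, 625 and 901 in CtrlCre samples and 1638, 1671 and 833 in Cpt1bcKO samples. Samples 1 and 2 of the knockout lay above all controls and sample 3 lay within their range. The log2 fold change was 0.66 (SE 0.27, 95% interval 0.06 to 1.27, adjusted p = 0.308), and it was 0.99 without Cpt1bcKO sample 3 (adjusted p = 0.0677) and 0.46 without CtrlCre sample 2 (adjusted p = 0.570).

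Per kilobase of exon, *Nppb* was the more abundant of the pair in every sample, with means of 1086 in CtrlCre and 1768 in Cpt1bcKO samples against 160 and 585 for *Nppa*. The *Nppa* level divided by the *Nppb* level per kilobase was 0.157, 0.134 and 0.144 in CtrlCre samples and 0.377, 0.244 and 0.416 in Cpt1bcKO samples. The groups did not overlap, and the log2 ratio was higher by 1.22 in the knockout (SE 0.24). A two-sided exact permutation test gave p = 0.1, the smallest value that 3 samples against 3 allow, and 0.2 after adjustment over 4 pairs of related members. A ratio within a sample does not depend on the scaling of that sample.

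In GENCODE vM21, 532 of the 865 exon bases of *Nppa* lie opposite the antisense gene *Gm13054*, which had values of 0 to 7. Reads overlapping several genes were not counted by the authors, and the use of strand in counting is not given in the sources used here, so the level of *Nppa* may be understated relative to that of *Nppb*.

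*Ankrd1* and *Ankrd23* were higher in each Cpt1bcKO sample than in any CtrlCre sample, without passing the test. *Ankrd1* encodes the cardiac ankyrin repeat protein CARP, a partner of titin at the I-band that also acts as a transcriptional cofactor and is an early marker of mechanical load (ENSMUSG00000024803, chromosome 19, 36111965 to 36119844, minus strand). Its values were 7386, 5526 and 4250 in CtrlCre samples and 10634, 9437 and 7654 in Cpt1bcKO samples. The lowest knockout value exceeded the highest control value by little, and the log2 fold change was 0.72 (SE 0.21, 95% interval 0.24 to 1.19, adjusted p = 0.159). With number 1 of both groups left out it was 0.81 and passed the test (adjusted p = 0.0325). *Ankrd1* was the most abundant member per kilobase, at 1982 in CtrlCre and 3202 in Cpt1bcKO samples, and ranked 31st of 11332 genes in level over all samples.

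*Ankrd23* encodes DARP, a related protein of the same titin region (ENSMUSG00000067653, chromosome 1, 36530188 to 36536521, minus strand). It had 132, 131 and 150 normalized counts in CtrlCre samples and 198, 236 and 157 in Cpt1bcKO samples. Knockout sample 3 stood just above the controls, and the log2 fold change was 0.50 (SE 0.19, 95% interval 0.07 to 0.92, adjusted p = 0.274). Its level per kilobase was 51.0 in CtrlCre samples, the lowest of the members there, and 73.0 in Cpt1bcKO samples, where *Fhl1* was lower at 63.4. In GENCODE vM21, 2109 of its 2697 exon bases are shared with *Gm42417* on the same strand, so its level is uncertain if the authors' annotation held that gene. The log2 ratio of *Ankrd1* to *Ankrd23* differed by 0.22 between the groups (SE 0.31, exact permutation p = 0.7), and it did so in the opposite direction, by −0.04, without CtrlCre sample 3.

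**Figure D2:**
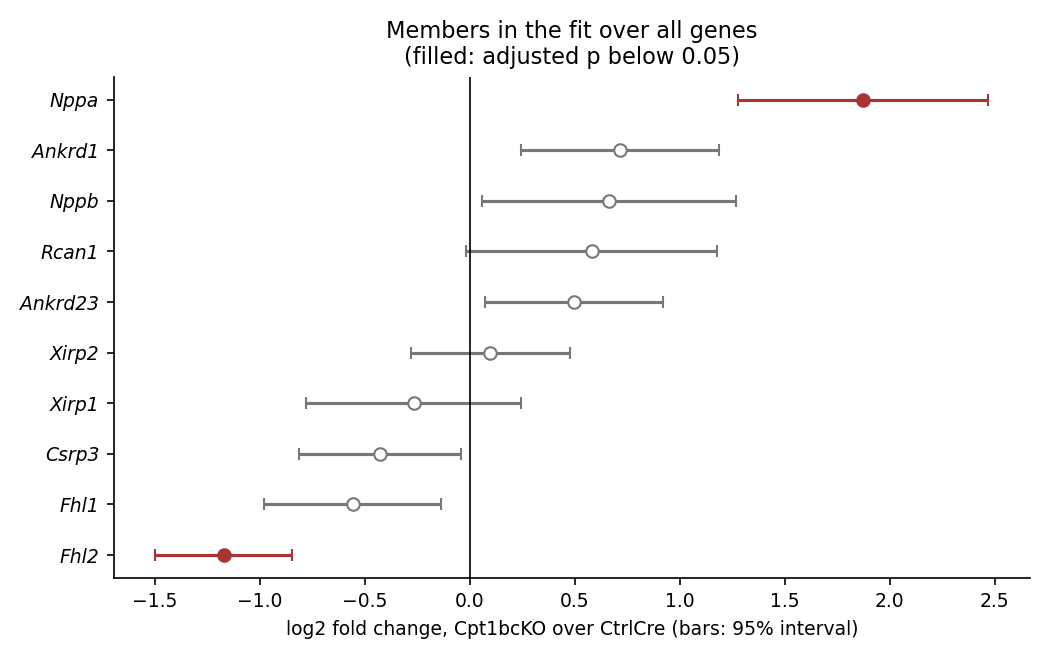
Log2 fold changes of Cpt1bcKO over CtrlCre samples (x axis) for the 10 members, with bars for the 95% interval of the fit; filled points passed an adjusted p of 0.05. *Nppa* at 1.87 and *Fhl2* at −1.17 stand at the ends, and the intervals of *Rcan1*, *Xirp1* and *Xirp2* include 0.

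*Fhl2* fell, and *Fhl1* and *Csrp3* were lower without passing the test. *Fhl2* encodes a protein of LIM domains at the Z-disc that binds titin, dampens calcineurin and serves as a cofactor of serum response factor (ENSMUSG00000008136, chromosome 1, 43123074 to 43196984, minus strand). It had 3681, 3189 and 2895 normalized counts in CtrlCre samples and 1543, 1284 and 1504 in Cpt1bcKO samples. The groups lay far apart relative to the spread within each. The mean fell from 3255 ± 397 to 1444 ± 140 (SD, n = 3 each). The log2 fold change was −1.17 (SE 0.15, 95% interval −1.50 to −0.84, adjusted p = 0.00391), and the gene ranked 29th by p value. It passed the test with each of the 6 samples left out in turn (adjusted p of 0.00351 to 0.0446, log2 fold change −1.25 to −1.08), but not with 1 prior variance for all genes (adjusted p = 0.0698). Both *Fhl2* starts that carry the CArG boxes shown above feed a single value per gene, so transcripts from them cannot be separated.

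*Fhl1*, an X-linked relative that binds titin and takes part in stretch sensing (ENSMUSG00000023092, chromosome X, 56731787 to 56793346, plus strand), had 313, 377 and 334 normalized counts in CtrlCre samples and 301, 210 and 195 in Cpt1bcKO samples. The groups did not overlap, but knockout sample 1 stood close to the controls. The log2 fold change was −0.56 (SE 0.19, 95% interval −0.98 to −0.13, adjusted p = 0.214). It passed the test without Cpt1bcKO sample 1 (−0.75, adjusted p = 0.0434) and with number 1 of both groups left out (−0.81, adjusted p = 0.0332), the samples in which *Xist* was high. Per kilobase, *Fhl1* stood at 91.9 in CtrlCre and 63.4 in Cpt1bcKO samples, far under *Fhl2* at 1716 and 761. The ratio of *Fhl1* to *Fhl2* per kilobase was 0.0434, 0.0604 and 0.0589 in CtrlCre samples and 0.0996, 0.0835 and 0.0662 in Cpt1bcKO samples, a difference of 0.61 on the log2 scale (SE 0.23, exact permutation p = 0.1, adjusted 0.2).

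*Csrp3* encodes the muscle LIM protein, which anchors the Z-disc and is mutated in inherited cardiomyopathy (ENSMUSG00000030470, chromosome 7, 48830398 to 48848033, minus strand). Its values were 4273, 2791 and 3295 in CtrlCre samples and 2830, 2399 and 2376 in Cpt1bcKO samples. Knockout sample 1 lay just above the lowest control, so the groups overlapped. The log2 fold change was −0.43 (SE 0.17, 95% interval −0.81 to −0.04, adjusted p = 0.299). Without CtrlCre sample 1, which held the highest value, it was −0.26 (unadjusted p = 0.132, adjusted p = 0.615).

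The Xin repeat genes, whose products bind actin at the intercalated disc and help to organise it, showed no change that passed the test. *Xirp1* (ENSMUSG00000079243, chromosome 9, 120013755 to 120023598, minus strand) had 1734, 1050 and 1067 normalized counts in CtrlCre samples and 861, 1374 and 945 in Cpt1bcKO samples. CtrlCre sample 1 was the highest of all, and the other samples overlapped (log2 fold change −0.27, SE 0.23, 95% interval −0.78 to 0.25, adjusted p = 0.659). This fold change was −0.03 without CtrlCre sample 1, −0.13 without Cpt1bcKO sample 1 and 0.11 with number 1 of both groups left out. It was −0.39 without CtrlCre sample 2, −0.38 without CtrlCre sample 3 and −0.47 without Cpt1bcKO sample 2. *Xirp2* (ENSMUSG00000027022, chromosome 2, 67446002 to 67526614, plus strand) had 12284, 13748 and 15405 in CtrlCre samples and 13491, 17257 and 13717 in Cpt1bcKO samples. The groups overlapped, with a log2 fold change of 0.10 (SE 0.17, 95% interval −0.28 to 0.48, adjusted p = 0.841). It turned to −0.02 without Cpt1bcKO sample 2, which held the highest value. Per kilobase, *Xirp2* stood at 1153 in CtrlCre and 1237 in Cpt1bcKO samples and *Xirp1* at 220 and 182. The log2 ratio of *Xirp1* to *Xirp2* was lower by 0.36 in the knockout samples (SE 0.33, exact permutation p = 0.4). The difference was −0.05 without CtrlCre sample 1 and −0.56 without CtrlCre sample 3.

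*Rcan1* (ENSMUSG00000022951, chromosome 16, 92391953 to 92466146, minus strand) had 745, 449 and 712 normalized counts in CtrlCre samples and 1138, 1156 and 608 in Cpt1bcKO samples. As for *Nppb*, knockout samples 1 and 2 were above all controls and sample 3 lay among them. The log2 fold change was 0.58 (SE 0.27, 95% interval −0.02 to 1.18, adjusted p = 0.370), 0.89 without Cpt1bcKO sample 3 (adjusted p = 0.125) and 0.35 without CtrlCre sample 2 (adjusted p = 0.645). Of its 2 starts, the inner one, whose NFAT core matches are shown above, gives the isoform known to respond to calcineurin, and the value per gene does not separate it from the outer start.

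Across the members, 6 had higher and 4 had lower fitted values in Cpt1bcKO samples. The median of their log2 fold changes was 0.30, against −0.0013 over all genes tested. With a sample left out it ran from 0.17 to 0.40, the lowest without Cpt1bcKO sample 2, where 5 members were higher and 5 lower. Of the 10 members, 1 (*Nppa*) was called higher, against 0.66% of all genes, and 1 (*Fhl2*) was called lower, against 0.906% of all genes. At an unadjusted p below 0.05, 4 were higher (*Nppa*, *Ankrd1*, *Ankrd23* and *Nppb*), against 6.66% of all genes, and 3 were lower (*Fhl2*, *Fhl1* and *Csrp3*), against 7.22%. The groups did not overlap in 3 members that were higher, against 9.13% of all genes, and in 2 that were lower, against 9.6%. The list is short, and no test was made of it as a whole.

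The samples were not alike within their group. For all 5 members with a log2 fold change above 0.4 (*Nppa*, *Ankrd1*, *Nppb*, *Rcan1* and *Ankrd23*), Cpt1bcKO sample 3 held the lowest of the 3 knockout values. In CtrlCre samples, number 2 was lowest for 4 of these 5 genes (all but *Ankrd1*). Number 1 was highest for 4 of them (all but *Ankrd23*). Cpt1bcKO sample 3 was also the sample with the largest share of *mt-Rnr2*, at 80.8%, and the part of this share in the values was not tested. For the 3 members with a log2 fold change under −0.4, the highest knockout value was in sample 1 each time.

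**Figure D3:**
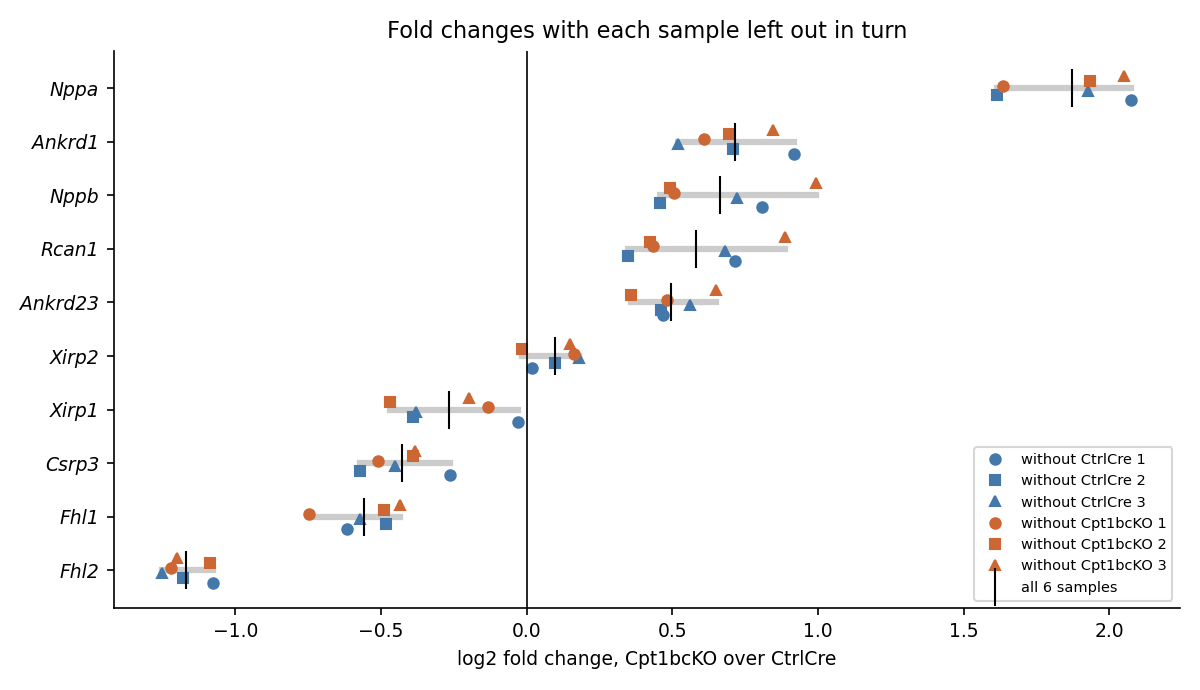
Log2 fold changes of the members (x axis) with all 6 samples (black ticks) and with each sample left out in turn (blue, a CtrlCre sample; orange, a Cpt1bcKO sample; the shape gives its number); grey bars span the 6 values. *Nppa* stays between 1.62 and 2.08 and *Fhl2* between −1.25 and −1.08, and *Xirp2* reaches −0.02.

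Cell type markers were read in the same samples. Summed over 6 ventricular CM markers, values were 192508 to 246232 in CtrlCre and 141761 to 170285 in Cpt1bcKO samples. All 6 were lower, 2 of them at an unadjusted p below 0.05 (against 7.22% of all genes) and none after adjustment. Fibroblast markers moved the other way, from sums of 493 to 780 in CtrlCre to 1092 to 1324 in Cpt1bcKO samples. Of these, 7 of 7 were higher at an unadjusted p below 0.05, against 6.66% of all genes. *Col1a1* (adjusted p = 0.0143) and *Lum* (0.0143) were called, against 0.66% of all genes called higher. The *Col1a1* call was lost without CtrlCre sample 3 (0.0516) or Cpt1bcKO sample 2 (0.0859) and with 1 prior variance (0.0698), and the *Lum* call without CtrlCre sample 2 (0.0626) or 3 (0.0643) or Cpt1bcKO sample 2 (0.0720). The part of either marker list in the members' values was not tested. In bulk RNA, fewer cells of a type and less RNA per cell cannot be told apart.

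The atria are the main source of *Nppa* in the adult heart. Of 5 atrial markers, *Sln* and *Bmp10* are not in the table used here, and the sum of the other 3 was 18 to 127 in CtrlCre and 41 to 96 in Cpt1bcKO samples, so that the groups overlapped. The atrial light chain gene *Myl7* stood at 2, 5 and 19 in CtrlCre and 7, 9 and 10 in Cpt1bcKO samples. Endothelial sums (1125 to 2411 against 2035 to 2423), smooth muscle and pericyte sums (542 to 1836 against 1008 to 1474) and leukocyte sums (85 to 133 against 106 to 116) overlapped too. All 6 endothelial markers had log2 fold changes above 0 (median 0.34), none at an unadjusted p below 0.05. CtrlCre sample 1 stood apart from the other controls, with the lowest endothelial (1125 against 2131 and 2411), smooth muscle and pericyte (542 against 1481 and 1836) and fibroblast sums (493 against 767 and 780) and the highest ventricular CM sum (246232 against 192508 and 203726). Without that sample, the log2 fold changes were 2.08 for *Nppa*, 0.92 for *Ankrd1*, 0.81 for *Nppb*, 0.71 for *Rcan1* and −1.08 for *Fhl2*. Skeletal muscle markers summed to at most 14 and erythroid markers to at most 6 in any sample.

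**Figure D4:**
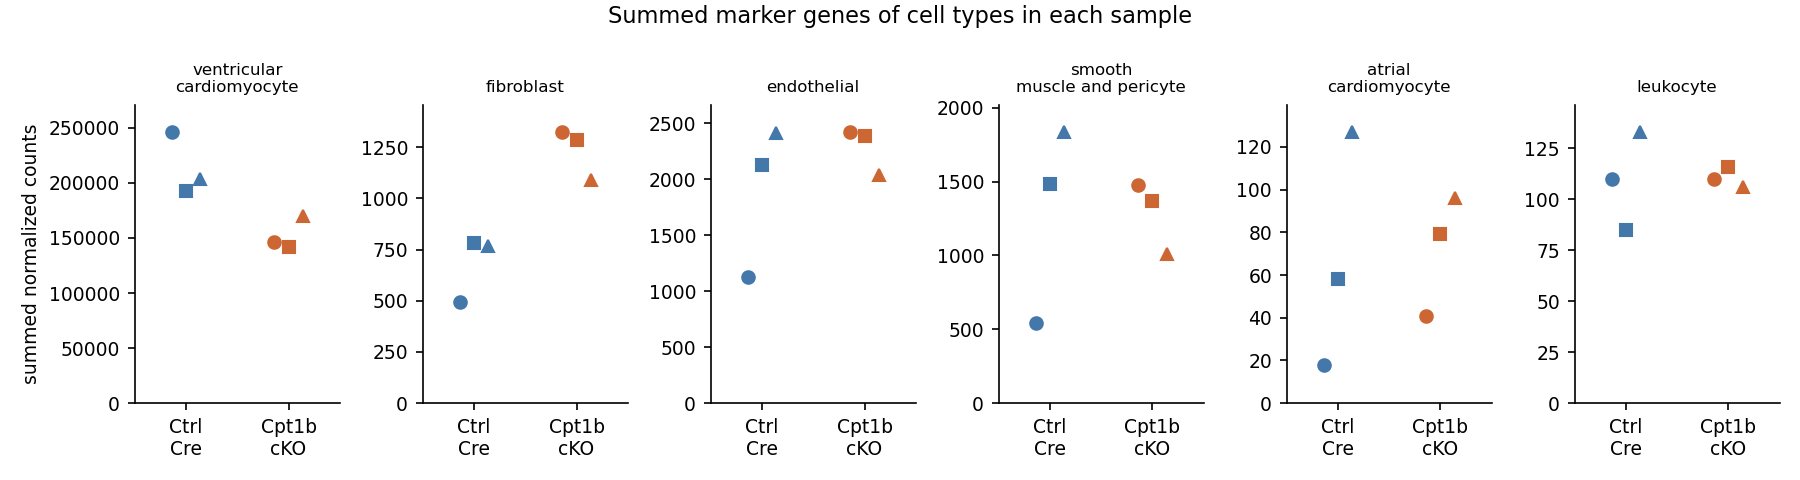
Summed normalized counts (y axes from 0) of marker genes of 6 cell types in each CtrlCre (blue) and Cpt1bcKO (orange) sample, with the marker shape for the sample number. Fibroblast sums are higher in all 3 Cpt1bcKO samples, ventricular cardiomyocyte sums are lower, and the other sums overlap between the groups.

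Other genes of the same pathways were read from 6 lists that hold 96 genes, of which 85 passed the filter. Among these 85, log2 fold changes were above 0 in 29 and below 0 in 56, and their median was −0.15. The test called 5, 2 higher and 3 lower, or 5 of 85 against 1.57% of all genes. Of these, *Gdf15* was low in all controls and entered the test only through the Cpt1bcKO samples, and 4 of 80 were called where every sample had to reach 10, against 1.88% of all genes under that filter. At an unadjusted p below 0.05, 6 were higher (7.06% of the 85, against 6.66% of all genes) and 20 lower (23.5%, against 7.22%). Without Cpt1bcKO sample 2, 3 were higher (3.61%, against 3.94% of all genes) and 13 lower (15.7%, against 4.88%). The members' median had the opposite sign to that of these lists. Samples were also scaled to their sum without rRNA and mitochondrial-encoded genes (total scaling). The median of all genes then moved to 0.11 and that of the members to 0.41. That of the other lists moved to −0.046, with 36 of 83 genes above 0 and 47 below, and 3 genes of these lists were called. At an unadjusted p below 0.05 under this scaling, 11 genes of the other lists were higher (13.3%, against 10.8% of all genes) and 13 lower (15.7%, against 4.45%), and 5 members were higher and 1 lower.

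Among genes of natriuretic peptide processing and reception, 5 of 8 were higher and 3 lower. *Corin*, the protease that cuts the *Nppa* product to its active form at the cell surface, fell from 2434, 2192 and 1706 to 972, 1346 and 1220 (log2 fold change −0.84, SE 0.18, adjusted p = 0.0483). All knockout values were below all control values, but the call was lost with each sample left out in turn (adjusted p of 0.0545 to 0.174) and with the total (0.0735) or upper quartile (0.0596) scaling. The same held with 1 prior variance (0.187) and with number 1 of both groups left out (0.0751). *Corin* and *Nppa* thus had opposite signs in the same samples.

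At the Z-disc and titin, 4 of 17 genes were higher and 13 lower. *Tcap*, which encodes telethonin, the cap of titin and a partner of the *Csrp3* product, fell from 3073, 1777 and 2373 to 520, 428 and 1307 (log2 fold change −1.82, adjusted p = 0.0354). The groups did not overlap. The call was lost without any of the 3 CtrlCre samples (adjusted p of 0.0739 to 0.127) and without Cpt1bcKO sample 2 (0.184). The same held with 1 prior variance (0.156) and with number 1 of both groups left out (0.0980).

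No gene was called among LIM protein relatives, where 4 of 9 were higher and 5 lower. Of these 9, 1 was higher and 1 lower at an unadjusted p below 0.05, against 6.66% and 7.22% of all genes. The smallest p belonged to *Lims2*, an adaptor of integrin adhesions, at 36, 48 and 42 against 61, 56 and 78 (log2 fold change 0.61, adjusted p = 0.277). In the calcineurin and NFAT list, to which *Rcan1* responds, 4 of 15 were higher and 11 lower, none called. At an unadjusted p below 0.05, 0 were higher and 3 lower, against 6.66% and 7.22% of all genes. With the total scaling, 6 were higher and 9 lower. At an unadjusted p below 0.05 under that scaling, 1 was higher and 0 lower, against 10.8% and 4.45% of all genes. The smallest p was that of *Ppp3r1*, the regulatory subunit of calcineurin, at 651, 679 and 710 against 578, 449 and 474 (log2 fold change −0.45, adjusted p = 0.198).

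Among transcription regulators of hypertrophy, 6 of 18 were higher and 12 lower. *Hdac9*, a histone deacetylase of class II that holds MEF2 factors in check, fell from 323, 215 and 309 to 128, 157 and 116 (log2 fold change −1.06, adjusted p = 0.0320), without overlap of the groups. Its call was lost without CtrlCre sample 1 (0.115) or 3 (0.142) and without Cpt1bcKO sample 2 (0.0859) or 3 (0.0898), and with the total scaling (0.0541). The same held with 1 prior variance (0.129) and with number 1 of both groups left out (0.0703).

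In the list of fetal and stress response genes, 6 of 18 were higher and 12 lower, and the 2 called ones, *Acta1* and *Gdf15*, were both higher. *Acta1*, skeletal α-actin, a fetal isoform in the heart, rose from 773, 1177 and 814 to 15185, 10270 and 7005, a log2 fold change of 3.51 (SE 0.26, adjusted p = 0.000221), and stayed called with each sample left out. *Gdf15*, a secreted stress cytokine, was at 4, 0 and 6 in CtrlCre samples and at 104, 66 and 39 in Cpt1bcKO samples. It passed the filter on low values only through the Cpt1bcKO samples, so its values are given as a description, with no p. Its fitted log2 fold change depends on the pseudocount, at 4.32 with 1 and 3.14 with 5. For *Acta1* and *Gdf15*, as for the 5 members with a log2 fold change above 0.4, Cpt1bcKO sample 3 was lowest of the knockout samples. *Myh7*, the fetal myosin heavy chain, named here after its values were seen, stood at 3195, 612 and 1818 against 2139, 3175 and 3626, with overlapping groups (log2 fold change 0.93, adjusted p = 0.418). *Acta2*, another actin of this list and also named afterwards, was lower without overlap, at 526, 244 and 391 against 230, 134 and 132 (log2 fold change −1.20, adjusted p = 0.0835). At an unadjusted p below 0.05, 2 genes of the list were higher, counting *Gdf15* (11.1%, against 6.66% of all genes). By the same measure 6 were lower (33.3%, against 7.22%).

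**Figure D5:**
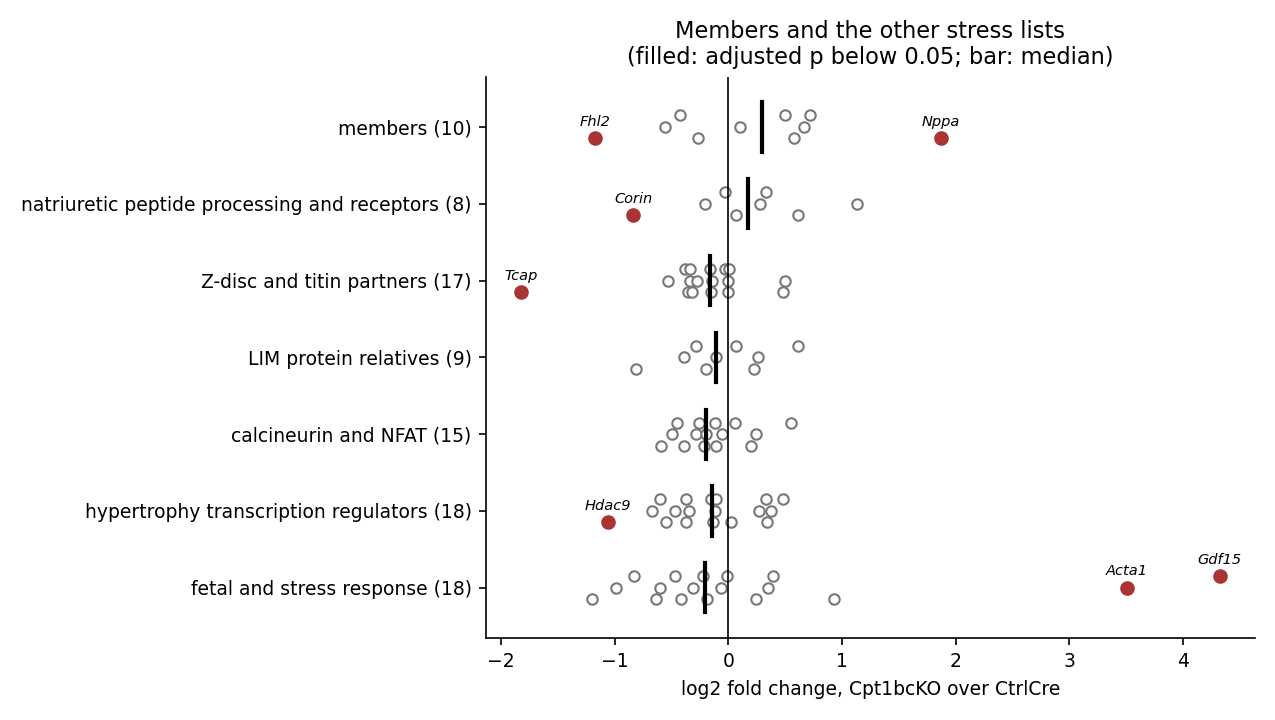
Log2 fold changes of Cpt1bcKO over CtrlCre samples (x axis) for each tested gene of the members and of the 6 other stress lists, with the number of genes in brackets; filled and named points passed an adjusted p of 0.05 (*Gdf15* entered the test only through the Cpt1bcKO samples) and bars give medians. The members' median is 0.30, and 5 of the 6 other lists have a median below 0. That of the natriuretic peptide list is 0.17, but −0.01 with number 1 of both groups left out.

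The pattern of *Nppa* over the 6 samples was much like that of *Gpx1* (Pearson's r = 0.998) and *Eps8* (r = 0.986), of 6796 genes with a mean of at least 50. *Gpx1* is a glutathione peroxidase and *Eps8* an actin-capping adaptor. *Gpx1* stood at 117, 96 and 111 in CtrlCre and 178, 156 and 155 in Cpt1bcKO samples. The 6 points share their libraries, and for both genes all Cpt1bcKO samples were above all CtrlCre samples, so the correlations are given as a description.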

How the data were processed

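RNA from isolated adult CMs was sequenced as stranded total RNA libraries with single-end reads. The submitters' processing notes name FastQC 0.11.8, Trimmomatic 0.36, STAR 2.5.4b, featureCounts 1.6.0, DESeq2 1.14.1 and the genome builds mm10 and GRCm38.p5. The annotation release and the strand setting are not given in the sources used here. The authors excluded reads that overlapped several genes or aligned to several places. The deposited values were treated as a score, since they are read counts that the authors divided by a size factor and rounded to whole numbers, and a count model was therefore not used. Another 6 columns of the authors' own comparison (group means, fold changes and p-values) were not used.

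Values were transformed to log2(value + 1). Genes that reached 10 in 3 or more samples (11364) were tested with limma 3.58.1 in R 4.3.3 (trended prior variance, Benjamini-Hochberg over all genes). Ratios of 4 related pairs, chosen after the members' values were known, were compared by two-sided exact permutation. Lengths are exon unions of GENCODE vM21, whose start and end differed from the table for *Ankrd1*, *Ankrd23* and *Rcan1*; coordinates are those of the table. Promoters are RefSeq windows. Python 3.11.15, pandas 2.3.3, numpy 2.4.6 and matplotlib 3.10.9 were used.

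The members, gene lists and tests were chosen with earlier results of these data known. Genes named are the members, *Cpt1b*, up to 4 called genes of each list or else that with the smallest p, and the 3 genes of mean at least 50 most like *Nppa*, of which 1 is not reported here. The *Col1a1*, *Lum*, *Myl7*, *Xist*, *Ddx3y*, *Myh7*, *Acta2* and *mt-Rnr2* values lie outside this rule. On simulated data of the same size (11310 genes), limma called 46 of 50 genes raised and 36 of 47 genes lowered by 2 on the log2 scale, 5 of 50 and 1 of 49 at a change of 1, and 1 of 11114 unchanged genes. Every simulated gene had the same fixed dispersion, which was not estimated from these data. Alternatives were pseudocounts of 0.5 and 5, other filters, 3 rescalings, a replicate block, 1 prior variance and samples left out. The depth behind a value is only known as these sums of normalized counts, so no counting intervals are given.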

Additional observations from a re-analysis of the deposited data

How the results depend on the processing

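The precision is limited by 3 samples a group. In the simulation few changes of 1 on the log2 scale were called. The simulation gave every gene the same fixed dispersion, not estimated from these data, so it does not give the chance that a member is called. A member that missed the threshold cannot be called unchanged. Direction was kept under all 16 alternatives by 8 of the 10 members. *Xirp1* turned to 0.106 with number 1 of both groups left out, and *Xirp2* ran from −0.0158 to 0.180 with a sample left out. The log2 ratio of *Ankrd1* to *Ankrd23* ran from −0.0438 to 0.447. With 1 prior variance for all genes, *Nppa* (adjusted p = 0.0772), *Fhl2* (0.0698) and *Cpt1b* were no longer called, although their fold changes did not move. The cause was not tested.

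Of the members, the 1 called higher became 0 with 1 prior variance, 2 with number 1 of both groups left out and 0 to 1 with a sample left out, and the 1 called lower became 0, 2 and 1 to 2. At an unadjusted p, the 4 higher became 2 to 5 with a sample left out, and the 3 lower became 1 with the total scaling and 1 to 3 with a sample left out. Over all genes, 75 were called higher and 103 lower, against 23 and 18 with 1 prior variance, 119 higher with number 1 left out, and 17 to 137 higher and 23 to 168 lower with a sample left out, both lowest without Cpt1bcKO sample 2 and highest without Cpt1bcKO sample 1. The 5 called genes of the other lists became 3 with the total scaling, 1 with 1 prior variance and 1 to 6 with a sample left out. *Gdf15* had no value without any of the Cpt1bcKO samples, since it then missed the filter.

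The replicate numbers are shared by the groups, but deviations from the group means correlated at 0.376, 0.255 and 0.0684 in same-numbered samples, and sample 3 of each group correlated better with another number, so the numbers were not taken to pair the samples. Sex, as read from *Xist* and *Ddx3y*, was the same in same-numbered samples. With a replicate block, 249 genes were called higher and 354 lower, 2 members higher (*Nppa* and *Ankrd1*, adjusted p = 0.00545), *Fhl2* lower, and 10 genes of the other lists.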
